A study of Rattus norvegicus with 12 samples.

Results

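The genes described here are 10 genes of glucose uptake and glycolysis, taken as 5 pairs of isoforms: the glucose transporters Slc2a1 and Slc2a4, the hexokinases Hk1 and Hk2, the phosphofructokinases Pfkp and Pfkm, the enolases Eno1 and Eno3, and the lactate dehydrogenases Ldha and Ldhb. They were chosen by gene symbol, and all 10 were found among the 18483 genes of the deposited tables. RNA-seq was performed in neonatal rat ventricular myocytes (NRVMs), which are heart muscle cells cultured from newborn Sprague-Dawley rats and purified on a Percoll density gradient, so that cells of other types may remain. Groups of 3 biological replicates each, 12 samples in all, were compared: siNeg (negative control siRNA, untreated), siNeg PE (the same siRNA, then phenylephrine), siSlc39a2 (siRNA of a single sequence against Slc39a2, a gene of the SLC39 family of zinc importers, untreated) and siSlc39a2 PE (both). Phenylephrine (PE), an agonist of alpha-1 adrenergic receptors, is a standard stimulus of hypertrophy in these cells, and per the labels it was given for 36 h, beginning 12 h after transfection, whereas the methods of the study state a longer treatment. All 4 groups were transfected and kept in the same medium with insulin, transferrin and selenium. The study asked how loss of Slc39a2 alters the response of cardiomyocytes to PE.

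Glucose enters a cardiomyocyte through transporters in its membrane and is then phosphorylated by a hexokinase, committed to glycolysis by a phosphofructokinase, carried to phosphoenolpyruvate by an enolase, and turned into pyruvate, which lactate dehydrogenase interconverts with lactate. At most of these steps the heart expresses one isoform that prevails in the fetus or in most tissues and another that rises in mature muscle. The fetal or widely expressed isoforms are Slc2a1 (GLUT1), Hk1, Pfkp, Eno1 and Ldha, and the muscle or heart isoforms are Slc2a4 (GLUT4, moved to the membrane by insulin), Hk2, Pfkm, Eno3 and Ldhb. A shift from the adult towards the fetal isoforms is a known feature of hypertrophy of the heart.

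The sequences in front of the start sites are shown for 5 members, because the isoforms of the lactate dehydrogenase and phosphofructokinase pairs changed unequally with PE and Slc2a1 rose after knockdown of Slc39a2. The enolases, whose isoforms also changed unequally with PE, are not shown. Promoters of 9 of the 10 members were found in RefSeq (build GRCr8, rat), and Hk1 and Eno1 had more than one start site. Each line gives the 250 bases before the start, 5′ to 3′ on the strand of the gene. Capitals mark the core of the hypoxia response element (ACGTG or GCGTG) and the E-box CACGTG, to which MYC and carbohydrate response factors bind, on either strand. The E-box holds ACGTG on both strands and so counts as 2 matches to it.
Slc2a1, chr5:138002272-138002521 (+): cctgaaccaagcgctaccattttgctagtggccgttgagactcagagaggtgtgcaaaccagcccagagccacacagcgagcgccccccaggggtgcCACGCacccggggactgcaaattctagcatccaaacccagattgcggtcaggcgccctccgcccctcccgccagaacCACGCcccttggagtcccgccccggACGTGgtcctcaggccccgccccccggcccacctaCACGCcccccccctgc
Pfkp, chr17:68639563-68639812 (+): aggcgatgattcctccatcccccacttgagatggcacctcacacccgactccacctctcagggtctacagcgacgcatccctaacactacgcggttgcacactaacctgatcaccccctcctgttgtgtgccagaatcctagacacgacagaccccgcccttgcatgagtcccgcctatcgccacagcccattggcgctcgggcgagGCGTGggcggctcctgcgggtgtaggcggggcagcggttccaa
Pfkm, chr7:131113849-131114098 (+): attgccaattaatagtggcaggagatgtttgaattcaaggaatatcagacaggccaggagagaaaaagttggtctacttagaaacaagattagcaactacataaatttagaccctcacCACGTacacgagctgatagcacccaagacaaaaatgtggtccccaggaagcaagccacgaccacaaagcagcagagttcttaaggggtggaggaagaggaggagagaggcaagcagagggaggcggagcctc
Ldha, chr1:106507842-106508091 (+): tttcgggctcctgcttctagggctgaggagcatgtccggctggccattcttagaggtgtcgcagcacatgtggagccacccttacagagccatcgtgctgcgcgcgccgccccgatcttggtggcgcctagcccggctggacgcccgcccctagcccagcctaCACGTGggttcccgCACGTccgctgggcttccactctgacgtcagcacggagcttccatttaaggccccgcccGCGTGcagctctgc
Ldhb, chr4:177177409-177177658 (-): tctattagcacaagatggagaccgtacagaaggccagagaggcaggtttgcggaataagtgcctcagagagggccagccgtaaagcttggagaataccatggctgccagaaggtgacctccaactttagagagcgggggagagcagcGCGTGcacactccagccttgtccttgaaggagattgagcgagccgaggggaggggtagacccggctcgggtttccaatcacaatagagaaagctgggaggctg

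The Ldha sequence held 3 matches to ACGTG, 2 of them within its single E-box, and 1 to GCGTG, whereas that of Ldhb held 1 GCGTG and no ACGTG. The Slc2a1 sequence held 1 ACGTG and 3 GCGTG, that of Pfkm 1 ACGTG, and that of Pfkp 1 GCGTG. Of 33469 rat promoters of the same length, 16.6% held ACGTG, 25.9% held GCGTG and 5.59% held the E-box. These matches describe the letters alone, and binding was not measured.

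Libraries held between 24065539 and 28603854 expected counts, and 13967 genes with sufficient counts were tested, all 10 members among them. The targeted gene Slc39a2 fell from 50, 50 and 59 counts to 21, 11 and 2 with its siRNA (log2 fold change -2.35 ± 0.46, SE, edgeR, adjusted p = 0.00098), and in the presence of PE from 95, 198 and 182 counts to 31, 25 and 38 (-2.33 ± 0.38, adjusted p = 0.00022). Markers of cardiomyocytes summed to 29230 to 32110 FPKM (fragments per kilobase of gene, scaled to library size, a level corrected for gene length) in siNeg, 27770 to 28590 in siSlc39a2, 32900 to 35230 in siNeg PE and 35270 to 38460 in siSlc39a2 PE, without overlap. Actc1 was a large part of these sums, with means of 7296 FPKM in siNeg, 7398 in siSlc39a2, 13690 in siNeg PE and 18710 in siSlc39a2 PE. All 10 of these markers were present in every group, and 5 were lower and 0 higher in siSlc39a2 than in siNeg. With PE in siNeg cells 3 were higher and 5 lower, beside 24% and 25.7% of all genes, so the rise of the sum with PE was not shared by most of them. Markers of other cells moved with the knockdown as well. The 10 fibroblast markers summed to 2533 to 3453 FPKM in siNeg, 1129 to 1235 in siSlc39a2, 1821 to 2378 in siNeg PE and 754.4 to 1059 in siSlc39a2 PE, and 7 of 10 were lower and 1 higher in siSlc39a2 than in siNeg. All 10 smooth muscle and pericyte markers, several of which cardiomyocytes of this age also express, were lower in siSlc39a2, with sums of 3797 to 3952 in siNeg and 2375 to 2544 in siSlc39a2, whereas with PE the sums overlapped (3745 to 3966 in siNeg PE and 3632 to 3895 in siSlc39a2 PE). The 10 endothelial markers summed to 68.12 to 72.94 FPKM in siNeg, 38.91 to 41.93 in siSlc39a2, 69.57 to 83.29 in siNeg PE and 40.22 to 45.98 in siSlc39a2 PE. Eng made up most of these sums, with a mean of 64.5 FPKM in siNeg and 35.3 in siSlc39a2. Of 8 endothelial markers tested, 3 were lower and 0 higher with the knockdown, and 1 lower and 0 higher with PE present. Cldn5, at 0 in all siSlc39a2 and siSlc39a2 PE samples, was at most 0.09 FPKM in siNeg and 0.03 in siNeg PE, and was not tested. The 9 macrophage markers found summed to 70.11 to 99.24 FPKM in siNeg, 41.08 to 50.97 in siSlc39a2, 34.95 to 45.86 in siNeg PE and 28.72 to 34.11 in siSlc39a2 PE, and the 6 red blood cell markers to at most 3.61 in any sample. Of these 6 only Slc4a1 was tested, at a mean of 0.053 FPKM in siNeg and 1.92 in siSlc39a2 (log2 fold change 5.0 ± 0.4, SE, edgeR, adjusted p = 7.4e-07). Of all genes tested, 22.8% were higher and 26.4% lower in siSlc39a2 than in siNeg at an adjusted p below 0.05. With PE present the shares were 29.2% and 28.1%. The part of the cell type markers in the results was not tested, and in bulk RNA fewer cells of a type and less RNA per cell cannot be told apart.

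Among the 10 members, 2 were higher and 5 lower in siSlc39a2 than in siNeg at an adjusted p below 0.05 (edgeR, quasi-likelihood F-test, adjusted over all genes tested). Of all genes tested, 22.8% were called higher and 26.4% lower in that comparison, and with library totals alone in place of TMM factors 33.7% and 18.2%. With PE present, 2 members were again higher and 5 lower in siSlc39a2 PE than in siNeg PE, against 29.2% and 28.1% of all genes. PE raised 3 members and lowered 4 in siNeg cells, where 24% and 25.7% of all genes were called, and it likewise raised 3 and lowered 4 in siSlc39a2 cells, where 30.7% and 29.3% were called. The counts that also passed an absolute log2 fold change of 1 were 2 members for the knockdown, 2 for the knockdown with PE, 0 for PE and 1 for PE after the knockdown, against 9.78%, 11.6%, 6.6% and 10.5% of all genes. Members changed in both directions, and their median log2 fold changes were -0.27, -0.19, 0.07 and -0.05 in the same order, beside medians of -0.016, 0.01, -0.014 and 0.006 over all genes. The 4 comparisons share samples, so their counts are not independent of each other.

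**Figure D1:**
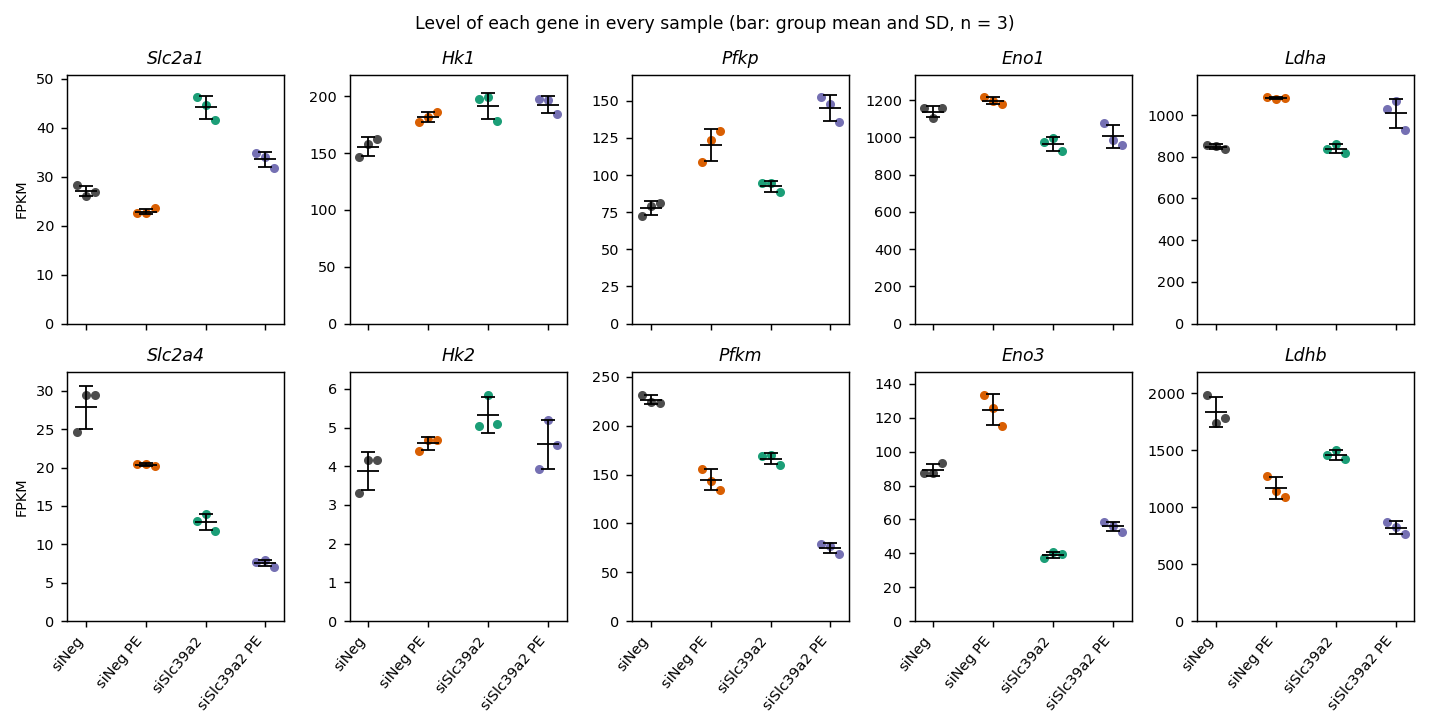
FPKM (vertical axes, starting at 0) of the 10 genes in each of the 12 samples, with the fetal or widely expressed isoforms in the upper row and the muscle or heart isoforms in the lower row; points are samples and bars the group mean and SD (n = 3). Slc2a1 is highest and Slc2a4 low in the knockdown groups, and Pfkm is highest in siNeg (mean 227 FPKM) and lowest in siSlc39a2 PE (74.9).

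The glucose transporters parted after the knockdown. Slc2a1 (gene ID 24778), the basal and fetal glucose transporter, had 28.2, 26.1 and 26.8 FPKM in siNeg, against 46.2, 44.5 and 41.6 FPKM after the knockdown. In siNeg PE it had 22.6, 22.5 and 23.5 FPKM and in siSlc39a2 PE 34.8, 34.0 and 31.8. None of these groups overlapped, and both knockdown groups lay above both siNeg groups. On the count scale Slc2a1 rose 1.48-fold with the knockdown (log2 fold change 0.56 ± 0.07, SE, adjusted p = 2.7e-05) and 1.46-fold with the knockdown in the presence of PE (0.54 ± 0.07, adjusted p = 3.3e-05). PE itself lowered it, to 0.800 of siNeg (-0.32 ± 0.07, adjusted p = 0.0026) and to 0.790 of siSlc39a2 (-0.34 ± 0.07, adjusted p = 0.0011).

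Slc2a4 (gene ID 25139), the insulin-responsive transporter of adult muscle, had 24.7, 29.5 and 29.5 FPKM in siNeg, 20.5, 20.5 and 20.2 in siNeg PE, 13.0, 13.9 and 11.8 in siSlc39a2, and 7.71, 7.90 and 7.06 in siSlc39a2 PE. The groups followed each other downwards in that order without overlap. The knockdown lowered Slc2a4 to 0.420 of siNeg (log2 fold change -1.25 ± 0.09, adjusted p = 1.1e-07) and, with PE, to 0.368 (-1.44 ± 0.09, adjusted p = 3.9e-08). PE lowered it to 0.694 in siNeg cells (-0.53 ± 0.08, adjusted p = 0.00035) and to 0.609 in siSlc39a2 cells (-0.71 ± 0.09, adjusted p = 3.0e-05). The siNeg levels of both transporters overlapped, whereas in siSlc39a2 PE Slc2a1 stood at 33.6 ± 1.5 FPKM (SD, n = 3) and Slc2a4 at 7.56 ± 0.44.

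Hexokinases trap glucose as glucose 6-phosphate. Hk1 (gene ID 25058), the hexokinase of most tissues, was far above Hk2 in every sample. Its levels were 146, 158 and 163 FPKM in siNeg, 178, 182 and 186 in siNeg PE, 197, 199 and 179 in siSlc39a2, and 198, 196 and 184 in siSlc39a2 PE. In FPKM the siNeg samples were below all others, but in the count fit no comparison of Hk1 passed the test, with log2 fold changes of 0.16 ± 0.06 for the knockdown (adjusted p = 0.052) and 0.15 ± 0.06 for PE (adjusted p = 0.067). DESeq2 called both (adjusted p = 0.019 and 0.047).

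Hk2 (gene ID 25059), the insulin-regulated hexokinase of muscle, was the least expressed member, with 3.31, 4.17 and 4.17 FPKM in siNeg, 4.39, 4.69 and 4.69 in siNeg PE, 5.03, 5.85 and 5.09 in siSlc39a2, and 3.94, 5.20 and 4.55 in siSlc39a2 PE. The knockdown raised it 1.27-fold without PE (log2 fold change 0.34 ± 0.09, adjusted p = 0.0072), a call that limma on log2(FPKM + 1) did not make (0.14, adjusted p = 0.17). With PE the siSlc39a2 PE and siNeg PE samples overlapped (0.01 ± 0.09, adjusted p = 0.95). The changes with PE were 0.18 ± 0.09 in siNeg cells (adjusted p = 0.12) and -0.16 ± 0.09 in siSlc39a2 cells (adjusted p = 0.15), and neither passed the test, although limma called the second (-0.25, adjusted p = 0.021).

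Phosphofructokinase catalyses the committed step of glycolysis, and its isoforms responded in opposite directions to PE. Pfkm (gene ID 65152), the muscle isoform, had 232, 225 and 224 FPKM in siNeg and 169, 170 and 160 in siSlc39a2. It had 156, 144 and 135 FPKM in siNeg PE and 78.8, 76.6 and 69.2 in siSlc39a2 PE, so that every sample of the doubly treated group was below every sample of the other groups. Pfkm fell to 0.662 with the knockdown (log2 fold change -0.60 ± 0.07, adjusted p = 3.0e-05), to 0.606 with PE (-0.72 ± 0.07, adjusted p = 1.3e-05), to 0.511 with the knockdown in the presence of PE (-0.97 ± 0.08, adjusted p = 3.7e-07) and to 0.469 with PE after the knockdown (-1.09 ± 0.08, adjusted p = 2.1e-07). Its knockdown effect differed between cells with and without PE by -0.37 ± 0.11 on the log2 scale, which did not pass the test (adjusted p = 0.077) but did with DESeq2 (-0.39, adjusted p = 0.015), with limma (-0.50, adjusted p = 0.0047) and without siSlc39a2 replicate 3 (-0.46, adjusted p = 0.039).

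Pfkp (gene ID 60416), the isoform of platelets and fetal tissues, had 72.2, 79.4 and 81.3 FPKM in siNeg, 109, 123 and 129 in siNeg PE, 94.4, 94.3 and 88.3 in siSlc39a2, and 152, 148 and 136 in siSlc39a2 PE. PE raised it 1.46-fold in siNeg cells (log2 fold change 0.55 ± 0.07, adjusted p = 8.5e-05) and 1.63-fold in siSlc39a2 cells (0.71 ± 0.07, adjusted p = 6.0e-06). The knockdown raised it 1.19-fold in the presence of PE (0.25 ± 0.07, adjusted p = 0.0086). Without PE the FPKM of the siSlc39a2 and siNeg samples did not overlap, but the difference in the count fit was 0.09 ± 0.07 (adjusted p = 0.31), and it was called only with library totals in place of TMM factors (0.23, adjusted p = 0.020).

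Enolase makes phosphoenolpyruvate, the substrate of pyruvate kinase. Eno3 (gene ID 25438), the muscle enolase, had, with Slc2a4, the lowest log2 fold changes of the members after the knockdown. Its levels were 87.3, 87.4 and 93.2 FPKM in siNeg and 37.2, 40.6 and 39.7 in siSlc39a2, and 134, 126 and 115 in siNeg PE and 58.3, 56.3 and 52.9 in siSlc39a2 PE. Every knockdown sample was below every siNeg and siNeg PE sample, and within each siRNA every PE sample was above every untreated one. The knockdown lowered Eno3 to 0.398 of siNeg (log2 fold change -1.33 ± 0.07, adjusted p = 1.2e-08) and, with PE, to 0.445 of siNeg PE (-1.17 ± 0.07, adjusted p = 4.1e-08). PE raised it 1.32-fold in siNeg cells (0.40 ± 0.07, adjusted p = 0.00064) and 1.48-fold in siSlc39a2 cells (0.57 ± 0.07, adjusted p = 3.9e-05), the reverse of its effect on Slc2a4, Pfkm and Ldhb, the other muscle or heart isoforms it changed.

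Eno1 (gene ID 24333), the enolase of most tissues, had 1158, 1102 and 1155 FPKM in siNeg, 1216, 1196 and 1180 in siNeg PE, 974, 995 and 924 in siSlc39a2, and 1075, 987 and 957 in siSlc39a2 PE. The knockdown samples were below the siNeg samples with and without PE. In the count fit Eno1 fell to 0.768 with the knockdown (log2 fold change -0.38 ± 0.07, adjusted p = 0.00040) and to 0.836 with PE present (-0.26 ± 0.07, adjusted p = 0.0046), whereas limma on quantile-normalized log2(FPKM + 1) gave -0.05 (adjusted p = 0.51) and 0.00 (adjusted p = 0.99). Its change with PE in siNeg cells was -0.01 ± 0.07 (adjusted p = 0.93), and its sign turned in several alternatives, among them limma, which called it (0.20, adjusted p = 0.020). In siSlc39a2 cells the change with PE was 0.12 ± 0.07 (adjusted p = 0.15), which limma called too (0.26, adjusted p = 0.0040). Counts of Eno1 were not all whole numbers, so that they were estimated in part, and its values are uncertain.

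Lactate dehydrogenase A favours the making of lactate and the B isoform, which prevails in the adult heart, its use. Ldhb (gene ID 24534) had 1986, 1741 and 1782 FPKM in siNeg, 1269, 1145 and 1086 in siNeg PE, 1454, 1503 and 1418 in siSlc39a2, and 872, 824 and 761 in siSlc39a2 PE. The groups did not overlap, and siNeg was the highest and siSlc39a2 PE the lowest. Ldhb fell to 0.600 with PE in siNeg cells (log2 fold change -0.74 ± 0.09, adjusted p = 3.8e-05) and to 0.582 in siSlc39a2 cells (-0.78 ± 0.09, adjusted p = 1.4e-05). The knockdown lowered it to 0.720 without PE (-0.47 ± 0.09, adjusted p = 0.00065) and to 0.698 with PE (-0.52 ± 0.09, adjusted p = 0.00027).

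Ldha (gene ID 24533) passed the test for PE and not for the knockdown. It had 857, 852 and 837 FPKM in siNeg and 839, 860 and 819 in siSlc39a2, which overlapped, and 1086, 1079 and 1083 in siNeg PE and 1027, 1066 and 930 in siSlc39a2 PE, all above the untreated samples. PE raised it 1.21-fold in siNeg cells (log2 fold change 0.27 ± 0.06, adjusted p = 0.0038) and 1.25-fold in siSlc39a2 cells (0.32 ± 0.06, adjusted p = 0.00093). The difference with the knockdown was -0.16 ± 0.06 without PE (adjusted p = 0.052) and -0.11 ± 0.06 with PE (adjusted p = 0.14), and its sign turned with limma on FPKM (0.12 and 0.11). Counts of Ldha were not all whole numbers either, and its values are uncertain.

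**Figure D2:**
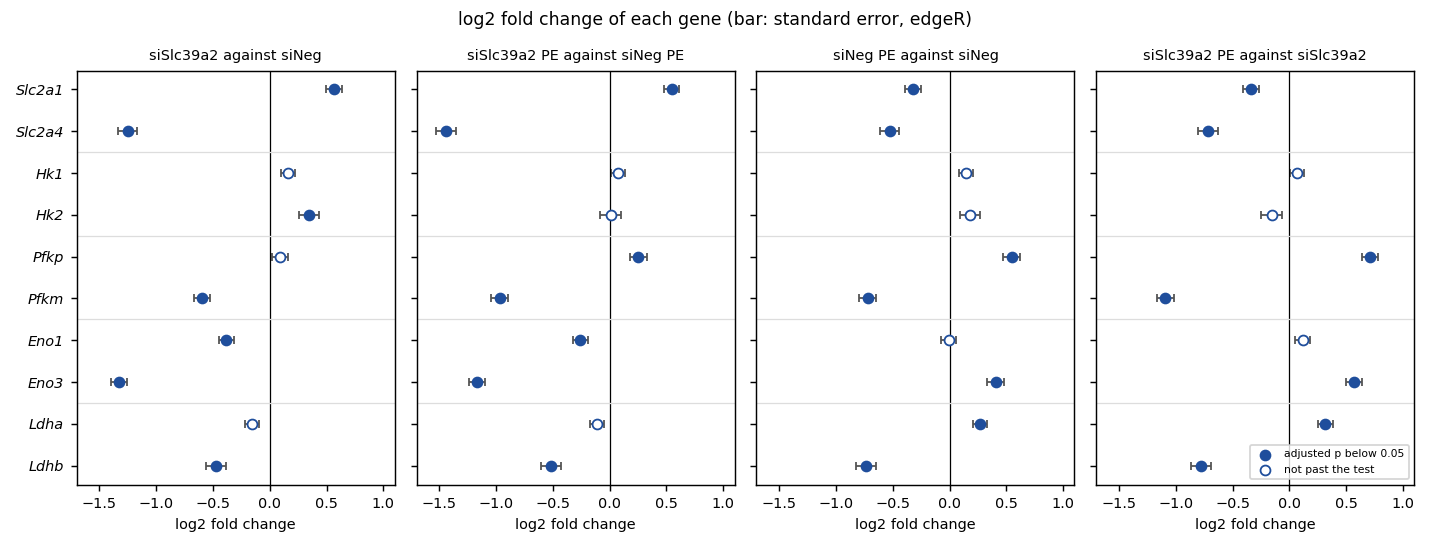
log2 fold change (horizontal axes) of each gene in the 4 comparisons, with its standard error from edgeR; filled points passed an adjusted p of 0.05 and open points did not. Slc2a4 and Eno3 lie furthest to the left in both knockdown comparisons, at -1.25 and -1.33 without PE, and Pfkm is at -1.09 for PE after the knockdown.

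For no member did the difference of the knockdown effect between cells with and without PE pass the test (0 of 10 at an adjusted p below 0.05 with edgeR, where 3.61% of all genes were called). At an unadjusted p below 0.05 there were 2, and DESeq2 and limma each called 1, Pfkm. For Slc2a1, Slc2a4, Eno3 and Ldhb the difference of effects was -0.02 ± 0.10, -0.19 ± 0.12, 0.16 ± 0.10 and -0.04 ± 0.12 on the log2 scale.

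The order of the members by level also changed. In siNeg the mean FPKM ran from Ldhb (1836 ± 131, SD, n = 3) through Eno1 (1138 ± 32), Ldha (849 ± 10), Pfkm (227 ± 4), Hk1 (156 ± 9), Eno3 (89.3 ± 3.4), Pfkp (77.6 ± 4.8), Slc2a4 (27.9 ± 2.8) and Slc2a1 (27.0 ± 1.0) to Hk2 (3.88 ± 0.50). Only the transporters, as neighbours in that order, overlapped between samples. In siSlc39a2 PE the order was Ldha (1008 ± 70), Eno1 (1006 ± 61), Ldhb (819 ± 56), Hk1 (193 ± 8), Pfkp (145 ± 9), Pfkm (74.9 ± 5.0), Eno3 (55.8 ± 2.8), Slc2a1 (33.6 ± 1.5), Slc2a4 (7.56 ± 0.44) and Hk2 (4.56 ± 0.63). There Ldha and Eno1 overlapped, and the other neighbours did not. Pfkp and Ldha thus passed Pfkm and Ldhb.

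The ratio of the isoforms within a sample does not depend on how the libraries were scaled. It was compared on the log2 scale by an exact permutation test, two-sided, in which the siRNA labels were permuted within each treatment and the PE labels within each siRNA. There are 400 such relabellings, so that 0.005 is the smallest p they can give, and with 3 samples against 3 alone it would be 0.1. Of 10 such tests, which are not adjusted for their number, 8 gave p below 0.05. Except for Hk1/Hk2, where no change was detected, the knockdown raised every ratio of the fetal or widely expressed to the muscle or heart isoform. Ratios of other gene pairs were not tested, so no background share stands beside this count. Gene by gene, edgeR called 49.2% of all genes with the knockdown and 49.7% with PE in siNeg cells. It called 57.3% with the knockdown in the presence of PE and 60% with PE after the knockdown. Whether the count or the direction is particular to these isoform pairs was therefore not tested.

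The Slc2a1/Slc2a4 ratio was 0.980 ± 0.142 (SD, n = 3) in siNeg, 3.43 ± 0.19 in siSlc39a2, 1.12 ± 0.04 in siNeg PE and 4.44 ± 0.12 in siSlc39a2 PE. The knockdown raised it 3.74-fold on average over both treatments (exact permutation p = 0.005), and no sample with the knockdown overlapped one without it. PE raised it 1.22-fold (exact permutation p = 0.015), and in siNeg cells the samples with and without PE overlapped. The Eno1/Eno3 ratio was 12.8 ± 0.5 in siNeg, 24.7 ± 1.5 in siSlc39a2, 9.62 ± 0.57 in siNeg PE and 18.0 ± 0.5 in siSlc39a2 PE. It rose 1.90-fold with the knockdown and was lowered by PE to 0.742 (exact permutation p = 0.005 for each).

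For the other pairs that changed, the estimate for PE was larger than that for the knockdown, a difference that was not tested. The Pfkp/Pfkm ratio was 0.343 ± 0.028 in siNeg, 0.556 ± 0.003 in siSlc39a2, 0.838 ± 0.134 in siNeg PE and 1.94 ± 0.02 in siSlc39a2 PE, so that Pfkp made up 25.5% of the summed FPKM of the pair in siNeg and 66.0% in siSlc39a2 PE. PE raised it 2.91-fold and the knockdown 1.95-fold (exact permutation p = 0.005 for each). The Ldha/Ldhb ratio was 0.464 ± 0.029 in siNeg, 0.576 ± 0.003 in siSlc39a2, 0.932 ± 0.071 in siNeg PE and 1.23 ± 0.06 in siSlc39a2 PE. PE raised it 2.07-fold and the knockdown 1.28-fold (exact permutation p = 0.005 for each). Whether the effect of the knockdown on a ratio differed with PE was not tested. The Hk1/Hk2 ratio was 40.4 ± 3.3, 39.6 ± 0.8, 36.1 ± 2.7 and 42.8 ± 6.5 in siNeg, siNeg PE, siSlc39a2 and siSlc39a2 PE, and its samples overlapped (exact permutation p = 0.735 for the knockdown and 0.24 for PE).

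**Figure D3:**
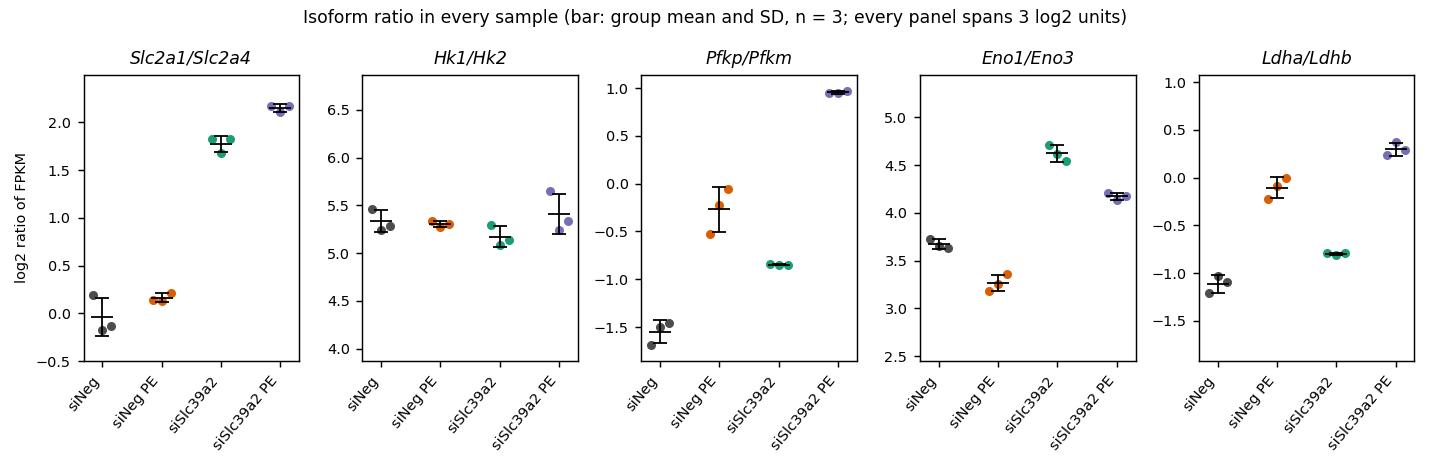
log2 ratio of FPKM of the fetal or widely expressed to the muscle or heart isoform (vertical axes, each spanning the same range) in each sample, with group means and SD (n = 3). Slc2a1/Slc2a4 separates by siRNA, Eno1/Eno3, Ldha/Ldhb and Pfkp/Pfkm by siRNA and by PE, with Eno1/Eno3 lower under PE and the other pairs higher, and Hk1/Hk2 overlaps.

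The other genes of the pathway were taken from lists of 95 genes, of which 89 were tested. Of these, 16 were higher and 33 lower with the knockdown, 22 higher and 38 lower with the knockdown in the presence of PE, 21 higher and 26 lower with PE, and 24 higher and 30 lower with PE after the knockdown. The shares of all genes called higher and lower were 22.8% and 26.4%, 29.2% and 28.1%, 24% and 25.7%, and 30.7% and 29.3% in the same order, and the counts for PE in siNeg cells (21 and 26 of 89) were close to them. With library totals alone the counts were 24 higher and 22 lower for the knockdown, beside 33.7% and 18.2% of all genes. For PE they were 24 higher and 20 lower, beside 28.4% and 20.3%.

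Among 13 other glycolytic enzymes tested, 0 were higher and 9 lower in siSlc39a2 than in siNeg, with a median log2 fold change of -0.41. In siSlc39a2 PE, 1 was higher and 11 lower than in siNeg PE, with a median of -0.36. Of all genes, 22.8% were called higher and 26.4% lower in the first comparison, and 29.2% and 28.1% in the second. For the knockdown without PE the count depended on the scaling. It was 2 higher and 5 lower under library totals alone, where 33.7% and 18.2% of all genes were called. With limma on FPKM it was 1 higher and 7 lower, beside 20.9% and 27.5% of all genes, and the sign of Aldoa turned (-0.27 with TMM and 0.21 with limma). Pkm, a pyruvate kinase gene, had 945 ± 10 FPKM (SD, n = 3) in siNeg and 598 ± 17 in siSlc39a2 (log2 fold change -0.80 ± 0.06, adjusted p = 4.1e-07). These are levels of the whole gene, and its splice forms were not told apart. Pgam2, the muscle phosphoglycerate mutase, fell in all 4 comparisons, from 195 ± 12 FPKM in siNeg to 106 ± 17 with PE, 108 ± 2 with the knockdown and 34.4 ± 3.2 with both. Pgam1, its counterpart in most tissues, was the enzyme that rose, from 264 ± 2 FPKM in siNeg and 313 ± 10 in siNeg PE to 370 ± 14 in siSlc39a2 PE (0.23 ± 0.05 for the knockdown with PE, adjusted p = 0.0024). Gapdh, often used as a reference gene, was lower with the knockdown in the count fit (-0.41 ± 0.07, adjusted p = 0.00039) but not with limma on FPKM (-0.03, adjusted p = 0.69). With PE present it went from 5334 ± 324 FPKM in siNeg PE to 3920 ± 230 in siSlc39a2 PE. Eno2, the neuronal enolase, ranged from 17.4 to 37.2 FPKM among the siNeg samples, and went with PE present from 32.2 ± 5.7 to 17.5 ± 1.7 after the knockdown (-0.89 ± 0.22, adjusted p = 0.0046). Hk3, also called lower in some comparisons, was below 1 FPKM in every group. Counts of Pkm, Gapdh, Aldoa and Eno2 were not all whole numbers, and their values are uncertain.

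**Figure D4:**
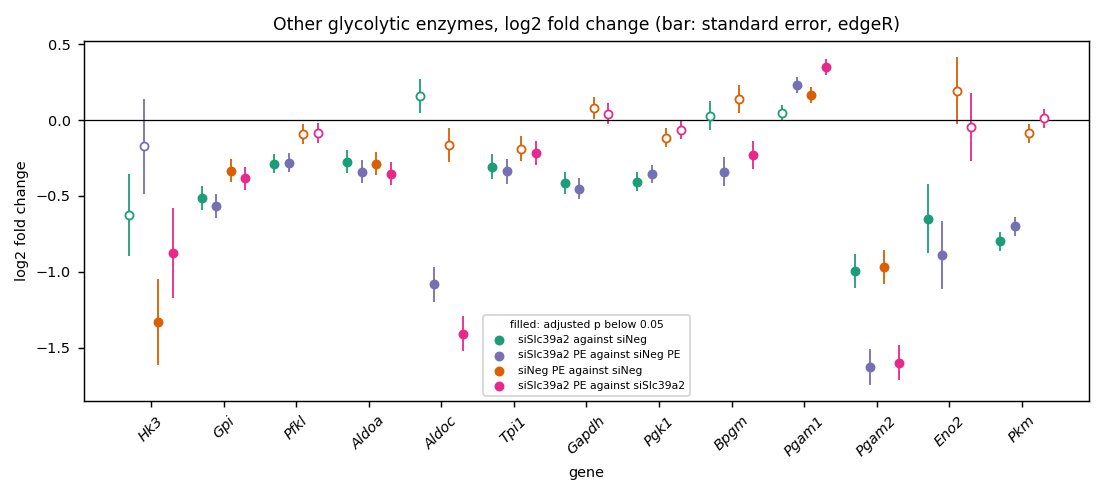
log2 fold change (vertical axis) of the 13 other glycolytic enzymes tested in the 4 comparisons, with standard errors from edgeR; filled points passed an adjusted p of 0.05. Most points of the knockdown comparisons lie below 0, Pgam2 is low in all 4, at -1.63 for the knockdown with PE, and Aldoc is low in those with siSlc39a2 PE, at -1.08 and -1.41.

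Around the uptake step, Arrdc4, an arrestin that lowers glucose uptake, rose with the knockdown from 5.49 ± 0.76 to 12.8 ± 0.4 FPKM (log2 fold change 1.08 ± 0.09, adjusted p = 4.3e-07). Txnip, its relative, fell with PE from 488 ± 53 to 272 ± 34 FPKM in siNeg cells and from 592 ± 9 to 296 ± 25 in siSlc39a2 cells (-0.92 ± 0.11 and -0.94 ± 0.11, adjusted p = 3.6e-05 and 1.7e-05). Of 9 genes of glucose transport and GLUT4 trafficking tested, 3 were higher and 2 lower with the knockdown, where 22.8% and 26.4% of all genes were called. With library totals alone 4 were higher and 1 lower, beside 33.7% and 18.2%. Tbc1d1, which restrains GLUT4 vesicles, was higher (0.51 ± 0.09, adjusted p = 0.00050), and Slc2a10 was lower (-0.94 ± 0.18, adjusted p = 0.0010) at about 1 FPKM. Slc2a9, a transporter of urate, was higher with the knockdown in the presence of PE (0.96 ± 0.27, adjusted p = 0.0083) but below 1 FPKM in every group.

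At the step after pyruvate, the lactate transporters Slc16a3 and Slc16a1 rose with PE. Slc16a3 (MCT4), the exporter of lactate in glycolytic cells, had 31.5 ± 2.6 FPKM in siNeg and 97.5 ± 1.4 in siNeg PE, and 21.9 ± 0.3 in siSlc39a2 and 72.6 ± 3.8 in siSlc39a2 PE. Its counts were not all whole numbers and are uncertain. It rose with PE in both siRNA groups (log2 fold change 1.55 ± 0.07 and 1.79 ± 0.08, adjusted p = 2.4e-08 and 3.6e-09) and fell with the knockdown (-0.67 ± 0.07, adjusted p = 1.1e-05). Slc16a1 (MCT1) rose with both, by 0.81 ± 0.07 with PE (adjusted p = 3.5e-06) and 0.54 ± 0.07 with the knockdown (adjusted p = 4.0e-05). Mpc1 and Mpc2, which form the mitochondrial pyruvate carrier, were lower with the knockdown (-0.35 ± 0.07 and -0.37 ± 0.08, adjusted p = 0.0012 and 0.0016).

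Of 11 genes of the pyruvate dehydrogenase complex and its kinases and phosphatases, 6 rose and 3 fell with PE, where 24% and 25.7% of all genes were called. Pdha1, a catalytic subunit, had 76.0 ± 10.8 FPKM in siNeg, 160 ± 19 with PE, 95.5 ± 18.7 with the knockdown and 239 ± 56 with both, and rose with PE in both siRNA groups (log2 fold change 1.00 ± 0.16 and 1.38 ± 0.16, adjusted p = 0.00041 and 2.3e-05), though its counts were not all whole numbers. Dld, the shared dehydrogenase subunit, and the phosphatase Pdp2, which activates the complex, rose with PE after the knockdown (0.90 ± 0.18 and 0.65 ± 0.11, adjusted p = 0.0010 and 0.00031). In siNeg cells Dld went with PE from 22.6 ± 1.2 to 35.0 ± 3.7 FPKM and Pdp2 from 2.13 ± 0.18 to 3.14 ± 0.20. The knockdown effect differed between cells with and without PE for 0 of the 11 genes, where 3.61% of all genes were called. With limma on FPKM it differed for 1, beside 5.76% of all genes. The kinase Pdk2, which inhibits the complex, went from 171 ± 6 FPKM in siNeg to 95.3 ± 5.1 in siNeg PE (-0.92 ± 0.08, adjusted p = 2.0e-06).

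In the branches that leave glycolysis, 7 of 12 genes of glycogen metabolism were lower with the knockdown and 0 higher, against 26.4% and 22.8% of all genes. With library totals alone 6 were lower and 1 higher, against 18.2% and 33.7%, and with limma 8 and 1, against 27.5% and 20.9%. The lower genes included the glycogen phosphorylases Pygm, Pygb and Pygl (log2 fold changes -0.47 ± 0.08, -0.38 ± 0.07 and -0.54 ± 0.11, adjusted p = 0.00046, 0.00078 and 0.0019). Gyg1, the primer of glycogen, rose with PE from 353 ± 7 to 673 ± 67 FPKM (0.86 ± 0.07, adjusted p = 3.4e-06), and Gbe1, the branching enzyme, rose with PE after the knockdown (0.96 ± 0.09, adjusted p = 2.2e-06). In siNeg cells Gbe1 went from 14.1 ± 0.3 to 19.2 ± 1.1 FPKM with PE. Phkg1, the catalytic subunit of muscle phosphorylase kinase, was lower with the knockdown (-1.41 ± 0.16, adjusted p = 1.4e-05) and with the knockdown in the presence of PE (-1.44 ± 0.17, adjusted p = 2.0e-05), at 3.20 ± 0.27 FPKM in siNeg and 0.61 ± 0.06 in siSlc39a2 PE.

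In the pentose phosphate and hexosamine branches, 4 of 9 genes were lower and 3 higher with the knockdown, again beside 26.4% and 22.8% of all genes. With library totals alone the counts were 3 and 3, beside 18.2% and 33.7%. Tkt, the transketolase of the pentose phosphate pathway, fell by 0.66 ± 0.06 on the log2 scale (adjusted p = 1.6e-06). Gfpt2, an entry enzyme of the hexosamine pathway, rose with PE (0.94 ± 0.12, adjusted p = 6.7e-05), and so did Ogt, which attaches the sugar of that pathway to proteins (0.86 ± 0.13, adjusted p = 0.00028). Gfpt1, its counterpart in most tissues, rose with PE after the knockdown (1.01 ± 0.15, adjusted p = 9.6e-05). In siNeg cells Gfpt1 went from 5.97 ± 1.05 to 9.36 ± 1.71 FPKM with PE. The knockdown effect differed between cells with and without PE for 0 of these 9 genes, where 3.61% of all genes were called. Library totals alone and limma on FPKM each called 1, beside 6.34% and 5.76% of all genes. Counts of Phkg1 and Gfpt1 were not all whole numbers. Of 5 genes of fructose 2,6-bisphosphate, the activator of phosphofructokinase, Pfkfb2 and Pfkfb3 were higher with the knockdown (0.56 ± 0.15 and 0.47 ± 0.10, adjusted p = 0.0068 and 0.0020), and no other passed. In that comparison 22.8% of all genes were called higher and 26.4% lower. Tigar, a phosphatase of fructose 2,6-bisphosphate, rose with PE (0.27 ± 0.08, adjusted p = 0.018), a call that limma did not make (0.13, adjusted p = 0.11).

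Of 13 transcription factors known to act on glycolytic genes, 1 was higher and 4 lower with the knockdown, and 1 higher and 4 lower with PE. These counts lie beside 22.8% and 26.4% of all genes for the knockdown and 24% and 25.7% for PE. With library totals alone 3 were higher and 3 lower with the knockdown, beside 33.7% and 18.2%. Epas1 (HIF-2 alpha), which is abundant in endothelial cells too, went from 66.0 ± 4.6 FPKM in siNeg to 30.5 ± 0.6 with PE, 25.3 ± 1.1 with the knockdown and 12.6 ± 0.1 with both (log2 fold change -1.49 ± 0.06 for the knockdown and -1.21 ± 0.06 for PE, adjusted p = 2.3e-10 and 1.6e-08). Hif1a was at 11.2 ± 1.7 FPKM in siNeg and 14.1 ± 0.7 in siSlc39a2 and passed the test for the knockdown with PE (0.37 ± 0.14, adjusted p = 0.043), which limma on FPKM did not call (0.27, adjusted p = 0.10). Mlxipl (ChREBP), a carbohydrate response factor below 1 FPKM in every group, was higher with PE after the knockdown (1.52 ± 0.40, adjusted p = 0.0056). Klf15, a factor of metabolic genes that raises Slc2a4, was lower with both (-0.78 ± 0.11 and -0.68 ± 0.11, adjusted p = 0.00011 and 0.00043), and so was Mef2d (-0.57 ± 0.07 and -0.33 ± 0.07, adjusted p = 1.4e-05 and 0.0016).

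Of 11 hypoxia-responsive genes outside glycolysis, 3 were higher and 2 lower with the knockdown, shares near those of all genes (22.8% and 26.4%), and 3 higher and 0 lower with library totals alone (33.7% and 18.2% of all genes). Among them Vegfa was higher (0.68 ± 0.08, adjusted p = 1.5e-05) and Adm, a vasodilator peptide, was higher too (0.52 ± 0.11, adjusted p = 0.0014). PE lowered Adm in siNeg cells, by -1.26 ± 0.11 on the log2 scale (adjusted p = 4.1e-06). After the knockdown PE lowered Ddit4 and Ndrg1, both stress-responsive (-0.998 ± 0.11 and -0.93 ± 0.15, adjusted p = 1.0e-05 and 0.00024), and raised P4ha1, a prolyl hydroxylase of collagen (0.74 ± 0.12, adjusted p = 0.00026). In siNeg cells mean FPKM went with PE from 72.9 to 60.1 for Ddit4, 2.53 to 1.65 for Ndrg1 and 38.3 to 45.4 for P4ha1.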

How the data were processed

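RNA-seq of 12 NRVM samples was analysed from 2 tables of 18483 genes. The authors deposited expected counts per gene, which are not normalized and not always whole numbers, and FPKM values. The submitters' processing notes name HISAT, Bowtie2 and Rnor_6.0 without their roles. The counting program and annotation are not given in the sources used here. In R 4.3.3, counts were rounded, and edgeR 4.0.16 left out 4516 genes with low counts (filterByExpr). They were scaled by TMM and fitted over all 4 groups, with quasi-likelihood F-tests (8 residual degrees of freedom) and Benjamini-Hochberg adjustment over the 13967 genes. SE is the log2 fold change divided by the root of F. Isoform ratios of FPKM were compared by exact permutation. Alternatives used DESeq2 1.42.0, limma 3.58.1 after quantile normalization, other scalings and filters, a replicate block and each sample left out. Library totals alone, and other scalings of the pathway lists, were added after seeing the data. The fits were tested on simulated data. No sample was a copy of another of its group (chi-square between replicates at least 4.73 per degree of freedom). Samples of different groups were not compared in this way. Outside the 10 members, up to 4 genes of each list, those with the largest changes past the threshold in any comparison, were named. Others, namely Pkm, Pgam1, Gapdh, Tbc1d1, Pygm, Pygl, Aldoa, Hif1a, Vegfa and Myc, were chosen after their values were seen. Some genes of these pathways are not reported here. Members and lists were chosen with earlier results of these data known.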

Additional observations from a re-analysis of the deposited data

Results flagged for a closer look

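The knockdown effect differed between cells with and without PE for 4 of the 89 other genes of the pathway tested (interaction term, edgeR, adjusted over all genes), beside 3.61% of all genes, and for 0 of the 10 members (2 at an unadjusted p below 0.05, and 1 with DESeq2). For Aldoc, the brain-type aldolase, the difference was -1.24 ± 0.16 on the log2 scale (SE, adjusted p = 0.00093), with 127 ± 3 FPKM (SD, n = 3) in siNeg, 156 ± 5 in siSlc39a2, 119 ± 22 in siNeg PE and 56.6 ± 4.7 in siSlc39a2 PE. For Gbe1, the glycogen branching enzyme, it was 0.59 ± 0.12 (adjusted p = 0.018), with 14.1 ± 0.3, 13.6 ± 1.9, 19.2 ± 1.1 and 25.5 ± 1.8 FPKM in the same order. For Ddit4, a stress-responsive inhibitor of mTORC1 signalling, it was -0.64 ± 0.15 (adjusted p = 0.036), with 72.9 ± 7.7, 64.6 ± 2.3, 60.1 ± 6.4 and 31.2 ± 2.8 FPKM. For Myc, a transcription factor of glycolytic genes, it was 0.51 ± 0.11 (adjusted p = 0.024), with 10.1 ± 0.1, 11.4 ± 0.2, 8.12 ± 0.67 and 12.1 ± 0.8 FPKM. With library totals alone the differences of Gbe1 and Myc did not pass the test (0.46 and 0.38, adjusted p = 0.055 and 0.063). That setting called 7 of the 89 genes and limma on FPKM called 12, beside 6.34% and 5.76% of all genes, among them 3 and 5 of the 13 other glycolytic enzymes in place of 1.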

How the results depend on the processing

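Of 28 called changes of members, 25 kept their call in every alternative run. Those of Hk2 and Eno1 with the knockdown and of Eno1 with the knockdown in the presence of PE lost it with limma on FPKM. Of 750 values of members under alternatives, 688 kept direction and side of the threshold, 4 lost and 28 gained a call, and 30 changed sign. The number of members whose knockdown effect differed with PE was 1 (Pfkm) in place of 0 with DESeq2, with the replicate block, with limma at either pseudocount and with library totals alone, and 0 to 1 with a sample left out (1 without siSlc39a2 replicate 3).

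Sign changes were as follows, with the limma values for pseudocounts of 1 and 0.1. The change of Eno1 with PE was 0.013 without a filter, 0.013 with only the groups compared, 0.20 and 0.20 with limma, 0.067 with library totals, and -0.035 to 0.025 with a sample left out. Eno1 with the knockdown and PE was 0.00085 and 0.00085 with limma. Ldha was 0.12 and 0.12 for the knockdown and 0.11 and 0.11 for the knockdown with PE with limma. Hk2 for the knockdown with PE was -0.12 and -0.15 with limma and -0.065 to 0.071 with a sample left out. Hk1 for PE after the knockdown was -0.026 to 0.10 with a sample left out. The difference of knockdown effects was -0.0067 and -0.0068 with limma, -0.086 with library totals and -0.031 to 0.10 with a sample left out for Ldha, -0.0102 with library totals for Eno1, and -0.12 to 0.02 for Slc2a1 and -0.14 to 0.035 for Ldhb with a sample left out. The siRNA effect on Hk1/Hk2 was 0.00899 with 1 added to each FPKM and -0.0901 to 0.012 with a sample left out. The cause of these shifts was not tested, and the 8 ratio tests below 0.05 kept direction and call in every alternative.

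Library totals alone moved the median of all genes from -0.016 to 0.128 for the knockdown, a shift of 0.144, and by -0.133 for the difference of effects (TMM factors were 0.927 to 0.961 in siNeg and 1.04 to 1.07 in siSlc39a2). Same-numbered samples were not shown to pair (correlations of their deviations -0.09 to 0.32, 12 of 24 cases best with the own number), but the comparisons differed. For siNeg PE against siNeg they were 0.053 to 0.31, beside -0.25 to 0.089 for other numbers. For siSlc39a2 PE against siNeg PE they were 0.0039 to 0.32, beside -0.23 to 0.12. For the knockdown without PE they were -0.011 to 0.025, beside -0.030 to 0.022, and for PE after the knockdown -0.090 to 0.22, beside -0.25 to 0.24. With the replicate block the genes called rose from 6873 to 7952 for the knockdown and from 504 to 1053 for the difference of effects. Hk1 and Ldha with the knockdown and Hk1 and Hk2 with PE gained a call under the block. Few reads stand behind the values of Hk3, Slc2a9 and Mlxipl, which were below 1 FPKM in every group.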
